A study of Mus musculus with 6 samples.

Results

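The tyrosine and dual-specificity phosphatases described here are the genes of the mouse nucleus accumbens table whose symbols name a receptor-type (Ptpr), a cytosolic (Ptpn) or a dual-specificity (Dusp) phosphatase, with Ptprz1 left out. Of 60 symbols that fit this naming, 58 had a test status of OK and are the members, out of 23479 genes with that status: 20 receptor-type, 16 cytosolic and 22 dual-specificity genes. Each symbol had a single row. Dusp21 and Ptpn20 were not tested in the authors' deposited table and are not members. Dusp19 had no row of its own, since its row also names Nup35, and is not counted either.

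The cocaine group received intraperitoneal injections of cocaine at 20 mg/kg repeatedly over 1 week, and the saline group received saline on the same schedule. Both were male C57BL/6 mice aged 11 weeks, with tissue taken at 24 h of withdrawal, and each group consisted of 3 pools of 5 mice with both hemispheres combined. Cage mates all received the same treatment, so cage and treatment cannot be told apart. The comparison asked which accumbens transcripts differed a day after the last exposure to the drug.

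The deposited table gives 1 value per gene and group, in FPKM (fragment counts scaled for transcript length and for the size of the library), and no value per pool. The plots and sentences below therefore show group values, and the spread between pools cannot be shown. Each log2 ratio of cocaine over saline is given with an implied standard error, its absolute value divided by the absolute deposited test statistic, and 95% intervals were taken from it on the normal distribution. Whether these errors hold the spread between pools is not stated, and depth is unknown. A gene was called when the authors' q was under 0.05. In whole tissue, fewer cells of a type and less RNA per cell cannot be told apart.

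Protein tyrosine phosphatases remove phosphate from tyrosine and act against the tyrosine kinases. They use a cysteine in a short signature as the nucleophile. Receptor-type members cross the membrane and often carry adhesion-like outer domains that bind matrix or synaptic partners. Cytosolic members are sorted to their substrates by SH2, FERM, PDZ or proline-rich regions. Dual-specificity members also act on threonine or serine, and the MAP kinase phosphatases among them switch off ERK, JNK and p38. In the striatum the best known member is Ptpn5, which encodes STEP, a phosphatase enriched in striatal neurons that acts on ERK, Fyn, Pyk2 and glutamate receptor subunits.

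The signature of a histidine, the cysteine, any 5 residues and an arginine is common to the classes. It was found in all members with a coding transcript except Dusp27 and Dusp28. Its coding bases are shown for members named below, of which Ptprn and Dusp1 were not called. They were read from GENCODE M21 transcripts (mouse build GRCm38), 5′ to 3′ on the coding strand, with the cysteine codon in capitals. Where the protein has several signatures the first is shown.
Ptprt: catTGCagtgctggagccgggagg
Ptprd: cacTGCagtgctggtgttggcaga
Ptprf: catTGCagtgcgggtgtggggcgc
Ptprn: cacTGCagtgacggtgcagggagg
Ptpn5: cacTGCagtgcagggattgggaga
Ptpn12: catTGCagtgcaggctgtggacga
Dusp3: catTGCcgcgagggctacagccgc
Dusp1: catTGCcaggccggcatctcccgg
The cysteine was codon 1098 in Ptprt, 1553 in Ptprd, 1539 in Ptprf, 911 in Ptprn, 472 in Ptpn5, 231 in Ptpn12, 149 in Dusp3 and 258 in Dusp1. Of the 24 bases, 20 were identical between Ptpn5 and Ptprd, 18 between Ptpn5 and Ptpn12 and 15 between Dusp3 and Dusp1, while Ptpn5 and Dusp3 shared 11. In all 19 receptor-type genes with a coding transcript these bases, as printed without the intron, lie across an exon junction, whereas in 17 of 20 dual-specificity genes with a signature they lie in a single exon. The printed stretch of Dusp1 is at chr17:26506592-26506615 and that of Dusp3 at chr11:101974902-101974925, both on the minus strand and in the last of 4 exons. A second copy of the signature was found in 9 of the 19 receptor-type genes, among them Ptpra, Ptprd, Ptpre, Ptprf, Ptprs and Ptprt. Receptor-type proteins had a median of 1442 codons, cytosolic ones 686 and dual-specificity ones 330.

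Receptor-type genes made up 7 of the 12 members called lower, cytosolic genes including Ptpn5 made up 4, and 0 members were called higher. Of the 58 members, 12 were called and all 12 were lower after cocaine, against a background of 11.9% of all genes called in either direction and 5.76% called lower (6.1% called higher). The 12 were 7 of 20 receptor-type genes (35.0%), 4 of 16 cytosolic genes (25.0%) and 1 of 22 dual-specificity genes (4.55%). The dual-specificity share was near the background. Changes were moderate: the called members had log2 ratios from -0.79 to -0.25, and of these only Ptprt and Ptpn12 fell by as much as 1.5-fold. The largest q among the called members was 0.0481 (Ptpn23) and the smallest among the others was 0.116 (Ptpn21) in the authors' deposited table.

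The level of a gene affects how often it is called. A mean of at least 1 FPKM over both groups was reached by 47 members, of which 12 were called (25.5%). Of the 14567 genes at that level, 14.8% were called (7.27% lower, 7.52% higher). By class, 41.2% of receptor-type, 33.3% of cytosolic and 5.56% of dual-specificity genes at that level were called. Above a mean of 10 FPKM, 10 of 30 members were called (33.3%), against 21.2% of 7439 genes, and 9.95% of these genes were called lower. The 11 members under 1 FPKM were Dusp2, Dusp9, Dusp13, Dusp27, Ptpn3, Ptpn14, Ptpn18, Ptpn22, Ptprc, Ptprh and Ptprq, and 0 of them were called at a q under 0.05 or had an unadjusted p under 0.05 in the authors' deposited table.

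**Figure D1:**
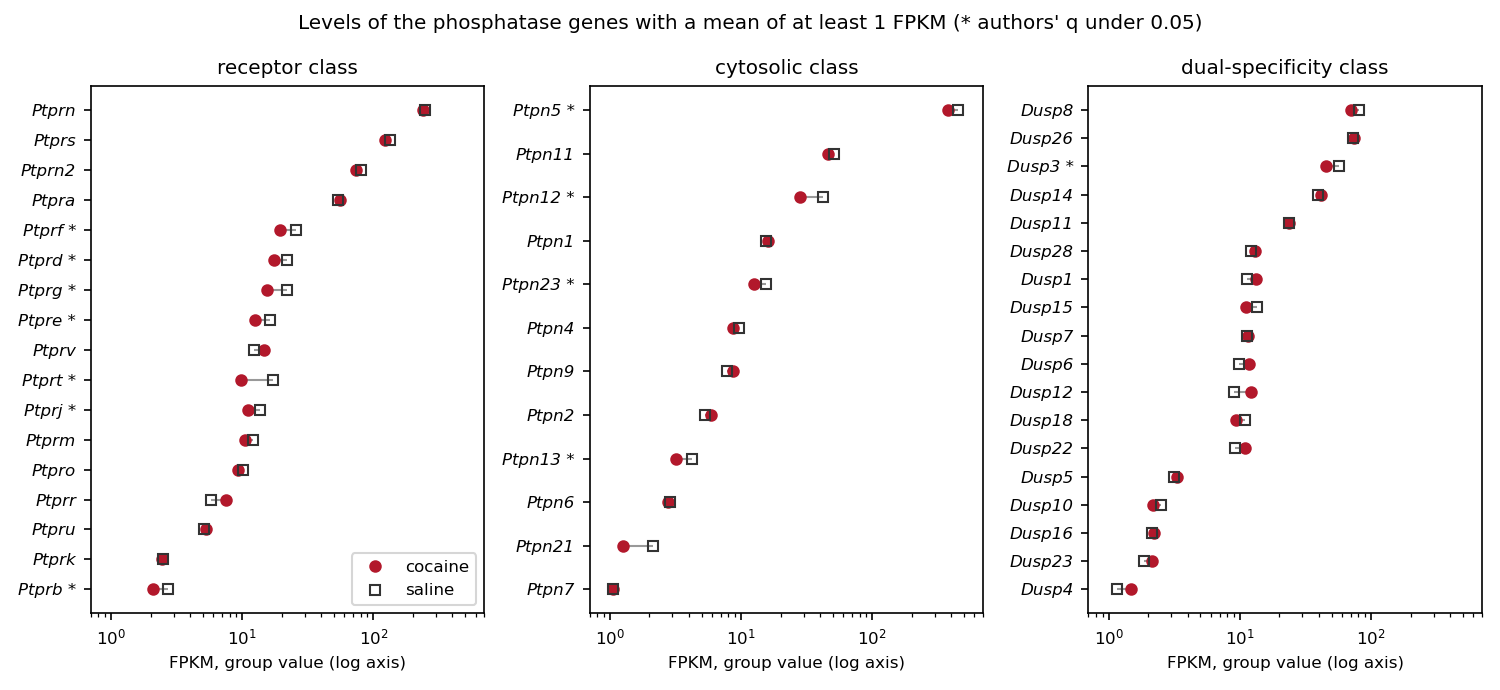
FPKM of cocaine (filled circles) and saline (open squares) for the 47 members with a mean of at least 1 FPKM, on a log axis, by class; each point is a single group value and asterisks mark genes with the authors' q under 0.05. Ptpn5 is the most abundant member at 380 FPKM after cocaine and 453 FPKM after saline, and every asterisk stands at a gene whose circle lies left of its square.

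The levels of the members spanned several orders of magnitude. Ptpn5 was the most abundant, at 380 FPKM after cocaine and 453 FPKM after saline, and made up 73.5% of the summed FPKM of the cytosolic class after cocaine and 73.8% after saline. It was followed by Ptprn with 239 FPKM after cocaine and 245 FPKM after saline, Ptprs, Ptprn2, Dusp8 and Dusp26. Of these leading genes Ptpn5 alone was called. The dual-specificity class was spread more evenly, with its leading gene Dusp8 at 19.5% of the class sum after cocaine and 21.7% after saline. Summed over a class, the cytosolic genes had 517 FPKM after cocaine and 613 FPKM after saline, a log2 ratio of -0.25. The receptor-type genes had 629 FPKM after cocaine and 681 FPKM after saline (-0.11), and the dual-specificity genes had 361 FPKM after cocaine and 372 FPKM after saline (-0.05).

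Among the receptor-type genes the MAM-domain type, which mediates contact between like cells, held the deepest fall. Ptprt, a brain-enriched member (mm9 chr2:161347726-162486883), had 9.81 FPKM after cocaine and 17.0 FPKM after saline. Its log2 ratio was -0.79 ± 0.11 (implied SE; q = 7.59e-12 in the authors' deposited table), lower than in all but 1.35% of the genes with at least 1 FPKM. Its relatives Ptprm, Ptprk and Ptpru were not called, with log2 ratios of -0.20 ± 0.11, -0.03 ± 0.17 and 0.05 ± 0.15. The log2 ratio of Ptprt was below that of Ptprm by 0.60 (95% interval of the difference -0.90 to -0.30), and the intervals against Ptprk (-1.16 to -0.38) and Ptpru (-1.21 to -0.48) also lay below 0. Such differences between family members were taken for 71 pairs after the values were seen, and 16 of their unadjusted intervals excluded 0.

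The LAR type, whose members help organise synapses by binding partners such as Slitrk, IL1RAPL and TrkC proteins across the cleft, had 2 of 3 members called. Ptprf, which encodes LAR (mm9 chr4:117880818-117964010), had 19.5 FPKM after cocaine and 25.5 FPKM after saline, a log2 ratio of -0.39 ± 0.07 (q = 2.02e-06 in the authors' deposited table). Ptprd, which encodes PTPδ (mm9 chr4:75587143-77857865), had 17.3 FPKM after cocaine and 22.0 FPKM after saline, a log2 ratio of -0.34 ± 0.08 (q = 0.000425 in the authors' deposited table). Ptprs, which encodes PTPσ and is the abundant member of the type at 123 FPKM after cocaine and 134 FPKM after saline, was not called (-0.13 ± 0.07, q = 0.247 in the authors' deposited table). The difference from Ptprs was -0.26 for Ptprf (95% interval -0.46 to -0.07) and -0.22 for Ptprd (-0.42 to -0.01). Ptprf and Ptprd differed by -0.05 (interval -0.26 to 0.16).

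Ptprg, a receptor that binds contactins (mm9 chr14:12386046-13074555), had 15.5 FPKM after cocaine and 22.0 FPKM after saline, a log2 ratio of -0.50 ± 0.14 (q = 0.00654 in the authors' deposited table). Ptpre, an activator of Src family kinases (mm9 chr7:142729507-142877977), had 12.6 FPKM after cocaine and 16.2 FPKM after saline (-0.36 ± 0.09, q = 0.000631 in the authors' deposited table). The sister gene Ptpra, with 55.1 FPKM after cocaine and 53.9 FPKM after saline, was not called (0.03 ± 0.08), and the log2 ratio of Ptpre was 0.39 lower (95% interval of the difference -0.62 to -0.16). Ptprj, known as DEP-1 (mm9 chr2:90269911-90420804), had 11.0 FPKM after cocaine and 13.6 FPKM after saline (-0.31 ± 0.08, q = 0.00150 in the authors' deposited table). Its relative Ptpro, a receptor of neurons and kidney podocytes, was not called (-0.13 ± 0.10), and the difference of Ptprj from Ptpro was -0.18, with an interval of -0.43 to 0.08 that included 0.

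Ptprb, the vascular endothelial phosphatase VE-PTP (mm9 chr10:115712579-115826594), had 2.07 FPKM after cocaine and 2.73 FPKM after saline, a log2 ratio of -0.40 ± 0.14 (q = 0.0336 in the authors' deposited table). Of 6 other endothelial markers 1 was called, Pecam1, with 6.18 FPKM after cocaine and 9.46 FPKM after saline. Of the 6, 4 were lower and 2 higher, with a median log2 ratio of -0.12. Their summed FPKM was 33.6 after cocaine and 33.2 after saline, led by Cldn5 with 14.4 FPKM after cocaine and 11.2 FPKM after saline. The part of endothelial content in the value of Ptprb was not tested. Ptprr, whose locus ends 590 bases before that of Ptprb starts, went the other way with 7.57 FPKM after cocaine and 5.79 FPKM after saline, but was not called (0.39 ± 0.20, q = 0.242 in the authors' deposited table). Ptprc, the leukocyte phosphatase CD45, stood at 0.450 FPKM after cocaine and 0.482 FPKM after saline and was not called. The 8 microglial markers summed to 157 FPKM after cocaine and 164 FPKM after saline, with Tmem119 alone called (higher, log2 ratio 0.78 ± 0.20).

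Ptprn and Ptprn2, which encode the dense-core vesicle proteins IA-2 and IA-2β and lack the usual phosphatase activity, were not called in spite of their high levels. Ptprn had a log2 ratio of -0.04 ± 0.28. Ptprn2, with 73.6 FPKM after cocaine and 80.2 FPKM after saline, had one of -0.12 ± 0.13. The implied error of Ptprn is large for a gene of 239 FPKM after cocaine and 245 FPKM after saline, and its 95% interval of -0.59 to 0.52 covers every log2 ratio of the called receptor-type genes but that of Ptprt. Ptprv, not called (0.26 ± 0.25), rests on a row of only 1.14 kb.

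**Figure D2:**
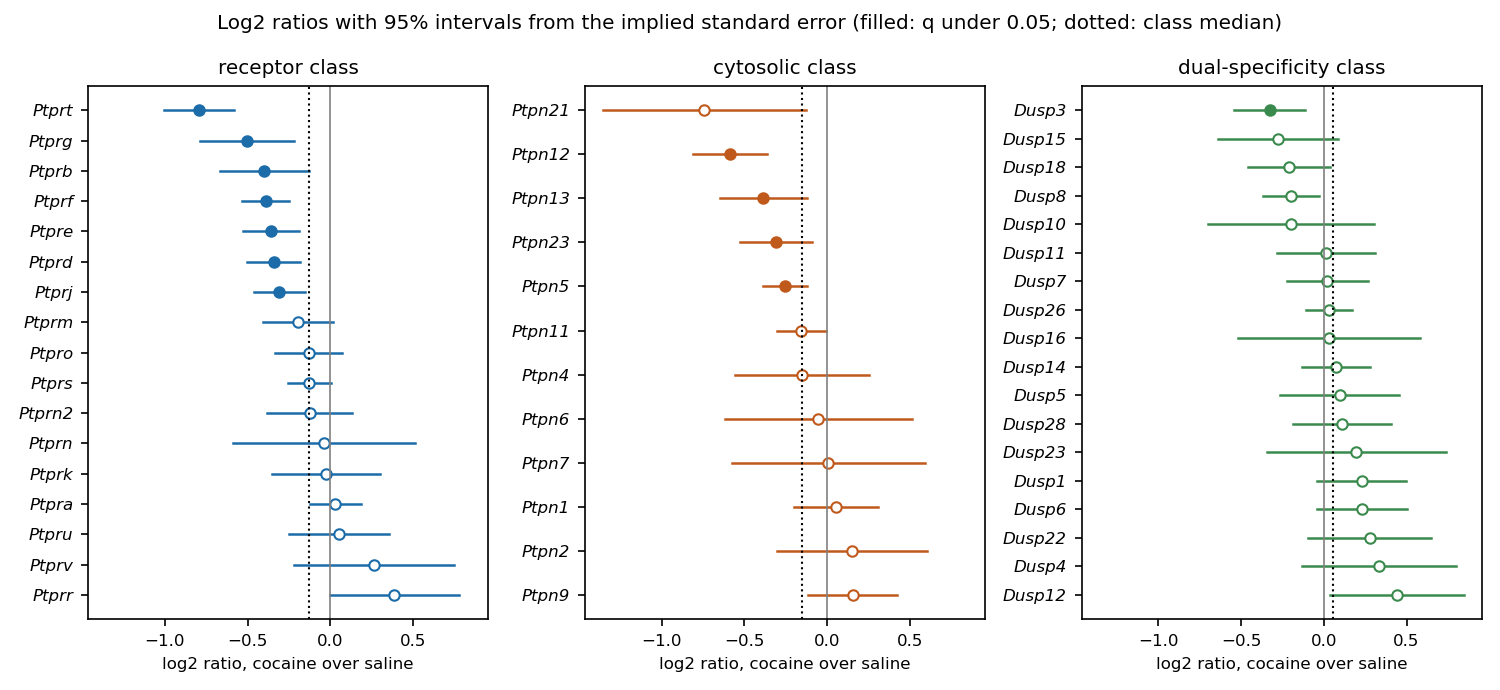
Log2 ratios of cocaine over saline with 95% intervals from the implied standard errors for the 47 members with a mean of at least 1 FPKM, by class; filled points have the authors' q under 0.05 and the dotted line is the class median. Filled points all lie left of 0, with Ptprt at -0.79 and Ptpn12 at -0.59, and the dual-specificity genes scatter around 0.

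Among the cytosolic genes, Ptpn5 had the smallest change in ratio and the largest difference in FPKM of the called members. Its 380 FPKM after cocaine and 453 FPKM after saline (mm9 chr7:54333168-54389054) gave a log2 ratio of -0.25 ± 0.07 (q = 0.00317 in the authors' deposited table), a level 16.1% lower. STEP binds MAP kinases through a kinase interaction motif that Ptprr and Ptpn7 also carry. Neither of these was called, and Ptpn7 was near the FPKM minimum at 1.06 FPKM after cocaine and 1.05 FPKM after saline. The log2 ratio of Ptpn5 was 0.64 below that of Ptprr (95% interval of the difference -1.05 to -0.23), while the interval against Ptpn7 (-0.86 to 0.34) included 0.

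The deepest called fall of the class was in Ptpn12, which encodes PTP-PEST, a phosphatase of p130Cas and other adhesion proteins (mm9 chr5:20492463-20561729). It had 28.3 FPKM after cocaine and 42.5 FPKM after saline, a log2 ratio of -0.59 ± 0.11 (q = 6.16e-06 in the authors' deposited table). Ptpn13, a large FERM and PDZ protein (mm9 chr5:103854211-104027378), had 3.22 FPKM after cocaine and 4.20 FPKM after saline (-0.38 ± 0.13, q = 0.0365 in the authors' deposited table). Ptpn23, an endosomal sorting protein known as HD-PTP (mm9 chr9:110287593-110310714), had 12.5 FPKM after cocaine and 15.5 FPKM after saline (-0.31 ± 0.11, q = 0.0481 in the authors' deposited table).

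The remaining cytosolic genes were not called. Ptpn11, which encodes SHP2, a positive regulator of growth factor signalling to ERK, had 46.1 FPKM after cocaine and 51.3 FPKM after saline (-0.15 ± 0.07, q = 0.199 in the authors' deposited table). Ptpn1, which encodes PTP1B, the phosphatase of the insulin and leptin receptors, had 16.2 FPKM after cocaine and 15.6 FPKM after saline (0.05 ± 0.13). Ptpn4, a FERM and PDZ protein, had 8.66 FPKM after cocaine and 9.60 FPKM after saline (-0.15 ± 0.21). Ptpn21, chosen after its value was seen, had a ratio almost as low as that of Ptprt (-0.74) with a larger error (0.31), at 1.27 FPKM after cocaine and 2.12 FPKM after saline. Other cytosolic genes at 1 FPKM or more lay between -0.05 (Ptpn6) and 0.15 (Ptpn9).

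Of the dual-specificity genes Dusp3 alone was called. It encodes VHR, a small phosphatase of ERK and JNK (mm9 chr11:101832457-101848327), and had 45.3 FPKM after cocaine and 56.8 FPKM after saline, a log2 ratio of -0.33 ± 0.11 (q = 0.0287 in the authors' deposited table). Of the 10 MAP kinase phosphatases 0 were called at a q under 0.05, and 1 of them, Dusp8, had an unadjusted p under 0.05 (p = 0.0209, q = 0.129 in the authors' deposited table). Dusp8, which acts on JNK and p38, had 70.2 FPKM after cocaine and 80.7 FPKM after saline (-0.20 ± 0.09).

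Dusp1, Dusp4, Dusp5 and Dusp6, MAP kinase phosphatases that growth factors or neuronal activity induce, had positive log2 ratios that did not pass the threshold. Dusp1, a nuclear phosphatase and immediate early gene, had 13.2 FPKM after cocaine and 11.3 FPKM after saline (0.23 ± 0.14, q = 0.348 in the authors' deposited table). Dusp6, the cytoplasmic ERK phosphatase, had 11.6 FPKM after cocaine and 9.93 FPKM after saline (0.23 ± 0.14, q = 0.353 in the authors' deposited table). Dusp4 had 1.47 FPKM after cocaine and 1.16 FPKM after saline (0.34 ± 0.24), and Dusp5, a nuclear ERK phosphatase, had 3.34 FPKM after cocaine and 3.13 FPKM after saline (0.10 ± 0.18). The 95% intervals of these 4 genes included 0 and reached up to between 0.46 and 0.80, so rises of that size cannot be told from no change here. The abundant atypical genes Dusp26 (74.6 FPKM after cocaine, 73.0 FPKM after saline) and Dusp14 (41.3 FPKM after cocaine, 39.3 FPKM after saline) had log2 ratios of 0.03 ± 0.07 and 0.07 ± 0.10. Other uncalled atypical genes at 1 FPKM or more lay between -0.28 (Dusp15) and 0.44 (Dusp12). Dusp12 (0.44 ± 0.21) had an unadjusted p under 0.05 (p = 0.0328, q = 0.176 in the authors' deposited table).

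The median of the dual-specificity class lay above those of the receptor-type and cytosolic classes, which were close to each other. At a mean of at least 1 FPKM, 13 of 17 receptor-type genes, 8 of 12 cytosolic genes and 5 of 18 dual-specificity genes were lower after cocaine, against 44.8% of all genes at that level. Their median log2 ratios were -0.13, -0.15 and 0.05, beside 0.04 for all genes. Set against that median in place of 0, 14 of 17 receptor-type genes, 9 of 12 cytosolic genes and 9 of 18 dual-specificity genes lay below it, so the surplus of dual-specificity genes above 0 was gone under centring. The classes were described by counts and medians, and the difference between them was not tested. Including the members below 1 FPKM, the medians were -0.12, -0.11 and 0.05.

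Gene size moved with the ratios and with the classes. Over all genes with at least 1 FPKM, the median log2 ratio was 0.14 in the quintile with the shortest loci and -0.06 in that with the longest, and the share called lower was 1.78% in the shortest and 16.2% in the longest. By the longest annotated transcript, the median was 0.17 in the shortest quintile and -0.12 in the longest, and the share called lower 1.46% and 21.6%. Receptor-type loci had a median span of 149.7 kb, cytosolic loci 59.9 kb and dual-specificity loci 13.0 kb. Of the 14 members with loci in the longest quintile, 12 were lower and 7 were called lower. In that quintile 58.0% of all genes were lower and 16.2% were called lower. Of the 20 members in the longest quintile of transcripts, 15 were lower and 9 were called lower. There 67.0% of all genes were lower, so the 15 of 20 is not far from the share of all genes. The share of all genes called lower there was 21.6%, beside the 9 of 20 members. Set against the median of its own locus quintile, the median receptor-type gene was at -0.12, the median cytosolic gene at -0.13 and the median dual-specificity gene at 0.00. With transcript quintiles the medians were -0.12, -0.08 and 0.01. Against the medians of their own locus quintiles, Dusp1, Dusp4, Dusp5 and Dusp6 were at 0.09, 0.28, 0.04 and 0.10. The part of gene size in these results was not tested further.

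**Figure D3:**
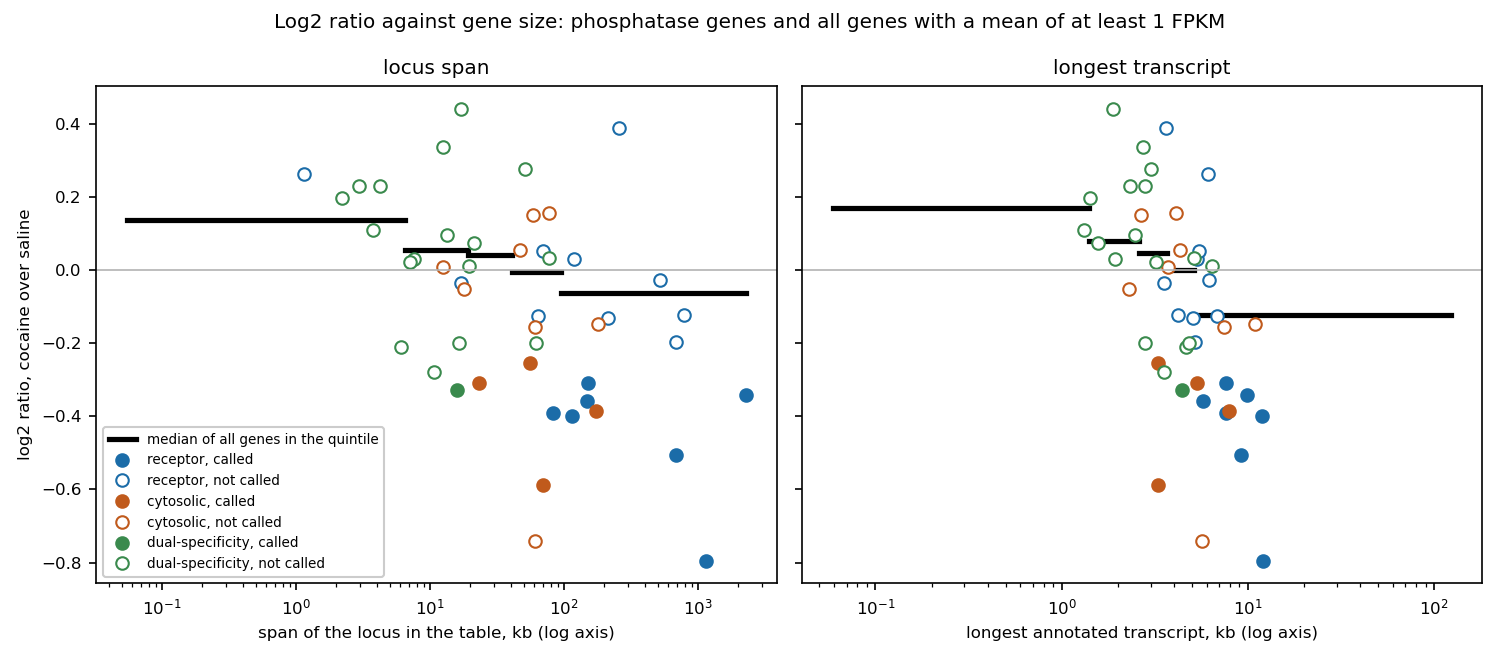
Log2 ratio of cocaine over saline against the span of the locus (left) and the longest annotated transcript (right), both in kb on log axes, for the 47 members with a mean of at least 1 FPKM; black bars are the medians of all genes in each size quintile, drawn over its range. The bars fall with size to -0.06 (loci) and -0.12 (transcripts), the receptor-type genes lie mostly at the right and all called members lie below the bar of their quintile.

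**Figure D4:**
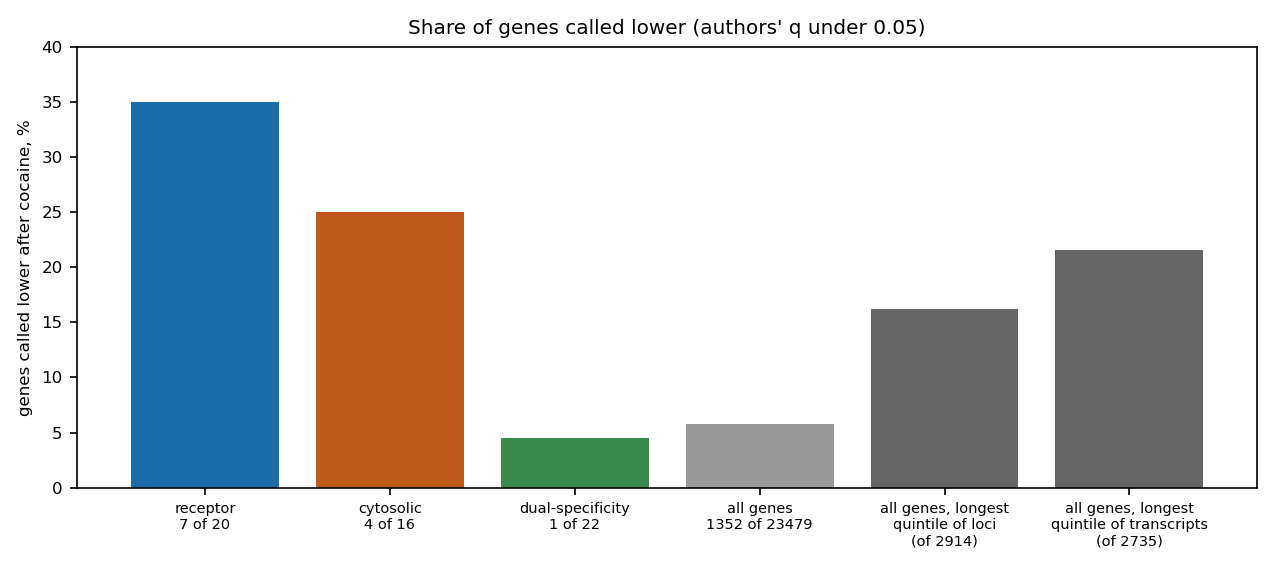
Percent of genes called lower after cocaine (authors' q under 0.05) for the 3 classes, for all genes with status OK, and for all genes with a mean of at least 1 FPKM in the longest quintile of loci or transcripts. The receptor-type bar stands at 35.0%, the cytosolic bar at 25.0% and the bar of genes with the longest transcripts at 21.6%. The class bars include members under 1 FPKM and of all sizes, so they are not matched to the quintile bars. The dual-specificity bar at 4.55% is near the 5.76% of all genes.

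Rows that share a locus may divide fragments between them. Of the 12 called members, 8 shared their locus with another row. Of all 58 members 24 did, and of all rows with status OK 48.8% did. In 1 of the 8 called members, Ptprd, another row in the locus reached 1 FPKM on average. The unnamed gene model Gm11246 in the locus of Ptprd had 11.8 FPKM after cocaine and 10.7 FPKM after saline and was not called. Ptpn12, Ptpn13, Ptprf and Dusp3 were alone in their loci.

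Promoter sequence is shown for Ptprt, the deepest called fall, and Ptpn5, the most abundant member. It is also shown for Dusp1 and Dusp8, the dual-specificity genes in whose windows the full cyclic AMP response element was found. The last pair was chosen for that match, and neither gene was called. The windows run from 250 bases before to 50 bases after the annotated start and come from RefSeq (GRCm38.p6), which held one for 48 of the 58 members. Capitals mark the cyclic AMP response element core TGACG or its reverse CGTCA, and the GC box GGGCGG or its reverse CCGCCC, on either strand. Adjacent or overlapping matches run together, and the full element TGACGTCA holds both core forms.
Ptprt (chr2:162661098-162661397, minus strand): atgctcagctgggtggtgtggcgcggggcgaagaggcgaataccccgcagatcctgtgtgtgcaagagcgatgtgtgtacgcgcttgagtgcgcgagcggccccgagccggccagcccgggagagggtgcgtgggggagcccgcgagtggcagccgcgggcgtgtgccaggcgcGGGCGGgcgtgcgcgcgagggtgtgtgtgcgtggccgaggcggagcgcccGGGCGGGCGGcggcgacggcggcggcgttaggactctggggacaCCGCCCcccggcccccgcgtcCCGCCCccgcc
Ptpn5 (chr7:47132549-47132848, minus strand, the second of 2 starts): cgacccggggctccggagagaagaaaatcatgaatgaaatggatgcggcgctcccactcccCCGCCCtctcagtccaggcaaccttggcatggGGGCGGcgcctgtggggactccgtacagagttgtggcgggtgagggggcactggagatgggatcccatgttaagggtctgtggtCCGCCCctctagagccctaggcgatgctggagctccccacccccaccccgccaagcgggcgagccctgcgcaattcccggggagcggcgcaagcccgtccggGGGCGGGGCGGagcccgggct
Dusp1 (chr17:26508423-26508722, minus strand): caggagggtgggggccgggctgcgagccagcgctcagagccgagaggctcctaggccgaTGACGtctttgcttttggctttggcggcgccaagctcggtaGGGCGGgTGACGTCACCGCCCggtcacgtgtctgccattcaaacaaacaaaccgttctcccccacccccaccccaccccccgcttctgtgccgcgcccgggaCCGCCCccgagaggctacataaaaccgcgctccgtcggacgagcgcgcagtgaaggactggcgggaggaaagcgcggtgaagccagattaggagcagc
Dusp8 (chr7:142095235-142095534, minus strand): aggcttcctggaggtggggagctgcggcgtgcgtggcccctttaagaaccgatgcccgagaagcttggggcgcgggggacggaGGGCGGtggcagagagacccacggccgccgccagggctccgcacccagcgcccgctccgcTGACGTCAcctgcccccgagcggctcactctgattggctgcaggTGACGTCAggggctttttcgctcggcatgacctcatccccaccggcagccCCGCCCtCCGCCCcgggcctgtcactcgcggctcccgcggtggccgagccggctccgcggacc
The full element TGACGTCA was found in the windows of Dusp1 (first base 143 bases before the start), Dusp8 (107 and 63 bases before it), Ptpn11, Ptprs and Ptpru, 5 of 48 members (10.4%), against 3.71% of the genes with at least 1 FPKM that had a window and 1.79% of all 32851 windows. It was in 0 of the 9 called members with a window. The core was found in 22 of 48 members (45.8%), 35.3% of genes with at least 1 FPKM and 20.8% of all windows. The GC box was found in 35 of 48 members (72.9%), 70.0% of those genes and 35.7% of all windows. The window of Ptprt held 5 GC boxes and no core, and so did the printed window of Ptpn5, while the window at the other start of Ptpn5 (chr7:47133635-47133934) held 0 GC boxes and no core. These are matches of letters, not measured binding.

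Among the MAP kinases, substrates of several members, Mapk3 fell. Mapk3, which encodes ERK1, had 205 FPKM after cocaine and 247 FPKM after saline, a log2 ratio of -0.27 ± 0.08 (q = 0.00809 in the authors' deposited table). Of 13 MAP kinase genes 2 were called (15.4%, near the background of 11.9%), with a median log2 ratio of 0.02 for the 11 at 1 FPKM or more. Of the Src family, Csk and focal adhesion kinases, 9 of 11 were tested and 0 were called at a q under 0.05, while Ptk2b and Src, 2 genes, had an unadjusted p under 0.05 in the authors' deposited table. Ptk2b, which encodes the STEP substrate Pyk2, had 209 FPKM after cocaine and 236 FPKM after saline (q = 0.0515 in the authors' deposited table), and Fyn had 80.4 FPKM after cocaine and 75.2 FPKM after saline (q = 0.657 in the authors' deposited table).

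Of 28 ligands and partners of the receptor-type phosphatases, 2 were called (7.14%, below the background of 11.9%), both lower. Ntrk3, which encodes TrkC, a postsynaptic partner of PTPσ, had 32.2 FPKM after cocaine and 45.6 FPKM after saline (-0.50 ± 0.10, q = 4.31e-06 in the authors' deposited table). Trio, a guanine nucleotide exchange factor that binds LAR, had 12.9 FPKM after cocaine and 16.0 FPKM after saline (-0.32 ± 0.11, q = 0.0327 in the authors' deposited table). The Slitrk genes, the contactin genes and the liprin genes (Ppfia) in the list were not called, with Cntn1 the nearest to the threshold (-0.21 ± 0.08, q = 0.0589 in the authors' deposited table).

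Of 36 other phosphatases, most with a catalytic cysteine (the Eya proteins use an aspartate), 6 were called (16.7%). The share was 11.9% over all genes and 14.8% over genes with at least 1 FPKM. Ssh2, a slingshot phosphatase of cofilin, had 3.81 FPKM after cocaine and 8.17 FPKM after saline, a log2 ratio of -1.10 ± 0.11. Eya3 (-0.49 ± 0.13), a phosphatase and transcription cofactor, and Mtmr3 (-0.42 ± 0.08), a phosphoinositide phosphatase, also fell. The mitochondrial Ptpmt1 (0.47 ± 0.14) and the prenylated Ptp4a2 (0.34 ± 0.12) rose, with q = 0.0115 and 0.0377 in the authors' deposited table, so neither passed at a q under 0.01. Ptprz1, kept out of the members by their definition, had 44.1 FPKM after cocaine and 59.9 FPKM after saline (-0.44 ± 0.09).

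**Figure D5:**
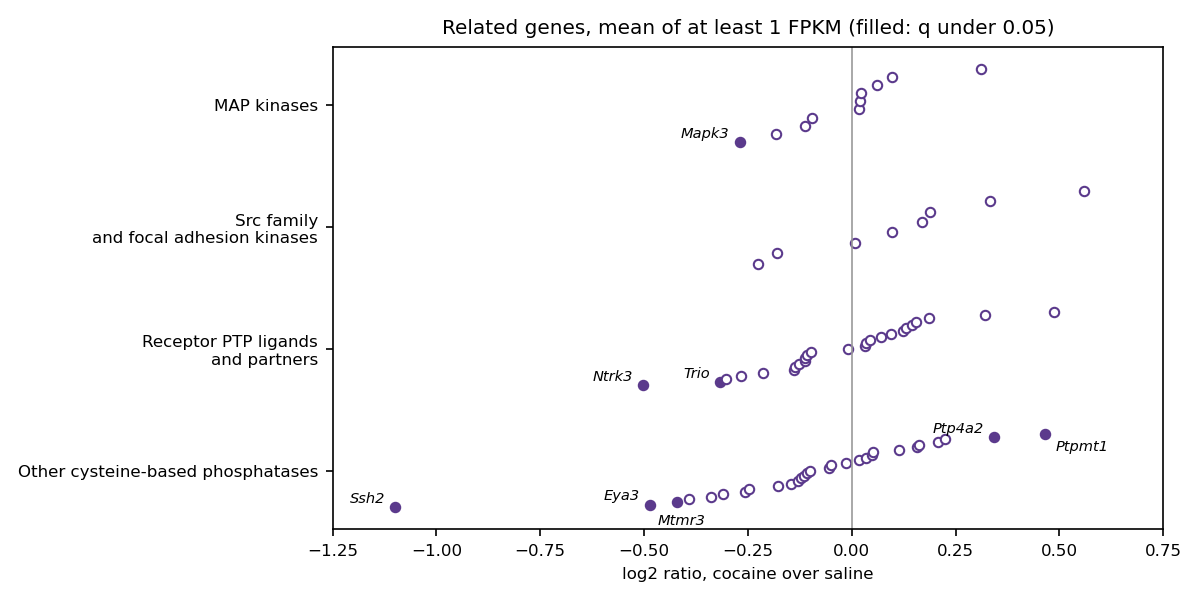
Log2 ratios of cocaine over saline for the genes drawn from 4 related lists, each with a mean of at least 1 FPKM; each point is a gene and filled, named points have the authors' q under 0.05. Mapk3 lies left of 0 at -0.27, Ptpmt1 right of 0 at 0.47, and Ssh2 lies farthest left at -1.10.

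Markers of the tissue were present, among them Drd2 of striatal projection neurons with 109.6 FPKM after cocaine and 118 FPKM after saline, and Adora2a with 119 FPKM after cocaine and 116 FPKM after saline, neither called. The 6 markers of these neurons summed to 1585 FPKM after cocaine and 1400.4 FPKM after saline, with 1 called. The 4 choroid plexus markers summed to 10.7 FPKM after cocaine and 96.1 FPKM after saline, with Ttr called lower, and the 4 markers of cortical excitatory neurons to 25.0 FPKM after cocaine and 15.9 FPKM after saline, with Slc17a7 called higher. The 5 astrocyte markers (0 called at a q under 0.05, and 1, Aldh1l1, with an unadjusted p under it in the authors' deposited table) summed to 206 FPKM after cocaine and 213 FPKM after saline, and the 5 oligodendrocyte markers (Mbp called lower) to 1885 FPKM after cocaine and 1949 FPKM after saline. The 3 markers of oligodendrocyte precursors (Cspg4 called lower) summed to 17.3 FPKM in both groups. The 4 blood markers (Alas2 called lower) summed to 212 FPKM after cocaine and 179 FPKM after saline. Their part in the results on the phosphatases was not tested.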

How the data were processed

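RNA sequencing of 6 pools, 3 per group, gave a single deposited table. CASAVA, TopHat and Cuffdiff were used, and the builds listed were NCBIM37 and mm9, per the submitters' processing notes. Their versions, settings, annotation and read numbers are not given in the sources used. Per the file headers it is a Cuffdiff gene test of saline and cocaine, with 1 FPKM value per gene and group deposited by the authors, a deposited p-value, and a deposited q and test statistic, treated as scores because q exceeds 1. The sign of the statistic was opposite to the log2 ratio in 100% of tested rows and was not used. Benjamini-Hochberg adjustment of the deposited p over the 23479 rows with status OK called the same 2784 genes as the authors' q.

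Log2 ratios, implied standard errors, counts and medians were computed with Python 3.11.15, numpy 2.4.6 and pandas 2.3.3; steps across genes were tested on simulated data. No pseudocount was used. Medians cover genes above 0 in both groups whose mean reached 1 FPKM. A test on pool values was planned and was not possible, so the authors' own test was used. Locus starts were written 1-based, since 21 of 21 mitochondrial rows alone in their locus then matched GENCODE. Transcript lengths came from GENCODE M21 (93.9% of genes). Pairwise comparisons within families used independent implied errors over 71 pairs and were chosen after the values were seen; 16 intervals excluded 0, of which 9 were among 45 pairs of atypical Dusp genes.

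The members and gene lists were chosen with earlier results of these data known. Named were all called members, the 3 most abundant uncalled members of each class, 16 genes fixed by name and the called genes of each list; other members are named as relatives of these or at the edges of a range. Alternatives were other q limits, FPKM minimums, a 1.5-fold minimum, rows alone in their locus, a pseudocount, centring and the mean. Some genes of the related lists are not reported by name here and are not drawn, although the counts and sums over the lists hold them.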

Additional observations from a re-analysis of the deposited data

How the results depend on the processing

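With a q under 0.1 or with recomputed adjustment the same 12 members were called, and with at least 5 FPKM in both groups 10. A minimum of 1 FPKM in both groups and the use of all rows of a symbol could not change the 12. Each symbol had a single row, and the called member of lowest level, Ptprb, had 2.07 FPKM after cocaine and 2.73 FPKM after saline. A q under 0.01 left 8, all lower, with 2 cytosolic and 0 dual-specificity genes, 1 of the ligands and partners (Ntrk3) and 4 of the 6 called other phosphatases, without Ptpmt1 and Ptp4a2. A minimum of 1.5-fold left 2 members (Ptprt and Ptpn12), that is 1 receptor-type, 1 cytosolic and 0 dual-specificity genes, along with 0 MAP kinases, 0 ligands and partners and 1 other phosphatase. Without rows that share a locus there were 4 members (Ptpn12, Ptpn13, Ptprf and Dusp3), 1 of them receptor-type and 2 cytosolic, with 1 MAP kinase and 3 other phosphatases. A q under 0.1 added Ptk2b, so that 1 Src family or focal adhesion kinase was called, and Cntn1, so that 3 ligands and partners were. Under a pseudocount of 1, centring, other FPKM minimums, rows alone in their locus and the mean, the receptor-type median lay between -0.18 and -0.08. The cytosolic median lay between -0.19 and -0.10, and the dual-specificity median between 0.02 and 0.05. The median of all members went from -0.05 to 0.01 with rows alone in their locus. The log2 ratios of 28 named members moved by less than their own implied errors under a pseudocount or centring. For centring this was fixed in advance, since it takes 0.04 from every gene and the smallest of these errors was 0.07 (Ptprs). Leaving out pools could not be done, since the table holds no value per pool. No paired analysis was possible because the columns carry no replicate numbers. Depth is unknown, and precision rests on the authors' test.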
